A study of Homo sapiens and Mus musculus with 16 samples.

Results

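The histone genes are the rows of the SK-HEP-1 mRNA table whose names start with HIST1H, HIST2H, HIST3H, HIST4H, H2AF, H3F or H1F. They were found by name alone, with no use of their levels, and number 88 of the 22314 genes in the table. The HIST names, 72 genes, are the replication-dependent histones and include HIST2H2BA and HIST2H2BC, which GENCODE lists as pseudogenes. The other 16 genes, with H2AF, H3F or H1F names, are the replacement histones. Of the 72 HIST genes, 35 were listed at 0 in every library, 37 were above 0 in at least 1 library and 11 were above 0 in all 4. Of the 16 replacement genes, 11 were above 0 in all 4 libraries and 5 were listed at 0 throughout. These 5 are H1FNT, H1FOO, H2AFB1, H2AFB2 and H2AFB3, genes known from testis and oocytes.

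Histones are the proteins on which DNA is wound. Replication-dependent histones supply new chromatin during S phase. Their genes lie in clusters, have no introns, and make mRNAs that end in a conserved stem-loop bound by the protein SLBP (stem-loop binding protein) in place of a poly(A) tail. Replacement histones are made throughout the cell cycle from single genes, most of them with introns, and their mRNAs carry poly(A) tails. A poly(A)-selected library therefore holds replacement histone mRNA and, of HIST mRNA, mainly the molecules that were polyadenylated or that came through the selection without a tail.

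SK-HEP-1 is an established line from a human liver tumour. The cells were grown in DMEM with 10% FBS. For 2 or 4 h they received either AcFBE, an ethanol extract of Antrodia cinnamomea fruiting bodies, at 0.5 mg/ml, or DMSO alone. The sample records list 0.5 mg/ml for the DMSO samples too. The libraries are 2U and 4U (DMSO, called untreated) and 2T and 4T (AcFBE). Each condition has 1 library of poly(A)-selected RNA, so no difference has a replicate check, and no test, error or p-value is given for any value below. Whether a library came from 1 culture or from pooled cultures is not stated in the sources used here. Levels were deposited as FPKM (fragments per kilobase of transcript, scaled to the mapped fragments of the library), a level per length that is relative to the rest of the library. In such bulk RNA, fewer cells in S phase and less histone RNA per cell cannot be told apart, nor can fewer RNA molecules and fewer molecules with a poly(A) tail.

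The libraries listed 8454 (2T) to 10691 (2U) genes above 0, and their FPKM summed to 786224 (2T) to 845681 (4U). The table gives no read counts per gene, so no counting error is given for any value. The number of genes above 0 in the 2U and 2T columns is not the number stated for these libraries in the study, which has more genes in 2T than in 2U, while the 4U and 4T columns have the stated numbers. The 2 h libraries held 2656 (2U) and 1173 (2T) genes between 0 and 0.2 FPKM, whereas the 4 h libraries held none, so low values were not handled alike at the 2 times. A value of 0 was not always absence: MCM7, a replication helicase gene of dividing cells, was listed at 0 in both 2 h libraries and at 333 (4U) and 320 (4T) FPKM later. The 2U library also stood apart in housekeeping genes, with ACTB at 653 FPKM against 1827 to 2305 in the others. Of the defining hepatocyte markers, ALB, APOA1, APOB, TTR and HNF4A were listed at 0 in all 4 libraries, and 8 of 10 listed hepatocyte genes and 5 of 6 endothelial genes were at 0 throughout. The summed level was 8.59 to 18.7 FPKM for the hepatocyte list (from 14.1 in 4U to 8.59 in 4T), nearly all of it SERPINA1. For the endothelial list, which was ENG alone, the sum was 8.65 to 24.8 FPKM. The mesenchymal list summed to 6641 to 13890 FPKM, most of it VIM. In that list CAV1, FN1 and THY1 were also above 0 in every library. COL1A2 was at 0 throughout and COL1A1 was above 0 in 4T alone, at 0.271 FPKM.

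The feature that sets HIST mRNA apart can be read in the genome. A search for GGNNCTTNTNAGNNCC (N is any base, transcribed strand only) in the 100 bases after the stop codon found this stem-loop in 67 of the 67 HIST genes with a stop codon in GENCODE on GRCh37, 23 to 68 bases past the stop (median 36). It was found in 1 of the 16 replacement genes, H2AFX, and in 0 of the 18541 other genes searched. Sequences are shown for the genes whose levels are described next, with the fixed letters of the search in capitals and the strand of the gene given.
HIST1H2AC (chr6:26124897-26124912, +): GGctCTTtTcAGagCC
HIST1H2BK (chr6:27114145-27114160, -): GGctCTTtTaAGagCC
HIST1H4B (chr6:26027129-26027144, -): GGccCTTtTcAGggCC
HIST2H2AC (chr1:149858941-149858956, +): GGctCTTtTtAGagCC
H2AFX (chr11:118965608-118965623, -): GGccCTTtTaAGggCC
The form shown for HIST1H2AC was the commonest, in 39 HIST genes of the H1, H2A, H2B and H3 families, and that of HIST1H2BK stood in 9. All 14 H4 genes with a match had the outer stem letters shown for HIST1H4B, as H2AFX had. In 49 HIST genes the annotated gene ended within 100 bases of the stem-loop, and in 18 it ran further, as HIST1H2AC does for 14432 bases and H2AFX for 1024 bases. Genes that run further have annotated transcripts in which a poly(A) tail can follow.

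HIST genes made up a small part of histone RNA in these libraries. Their levels summed to 131.7 (2U), 58.6 (2T), 145.9 (4U) and 57.9 (4T) FPKM. Both treated sums lay below both untreated sums, and the sum ratio of treated to untreated was 0.445 at 2 h and 0.397 at 4 h. The replacement genes summed to 1428 (2U), 2730 (2T), 1155 (4U) and 3369 (4T) FPKM, so their treated sums lay above the untreated ones, at ratios of 1.91 and 2.92. The total FPKM over all genes differed little, at ratios of 0.962 and 0.977. A single gene weighed heavily in each class. Without HIST1H2BK, the HIST ratios were 0.406 and 0.272, and without H2AFZ the replacement ratios were 1.1 and 1.56.

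**Figure D1:**
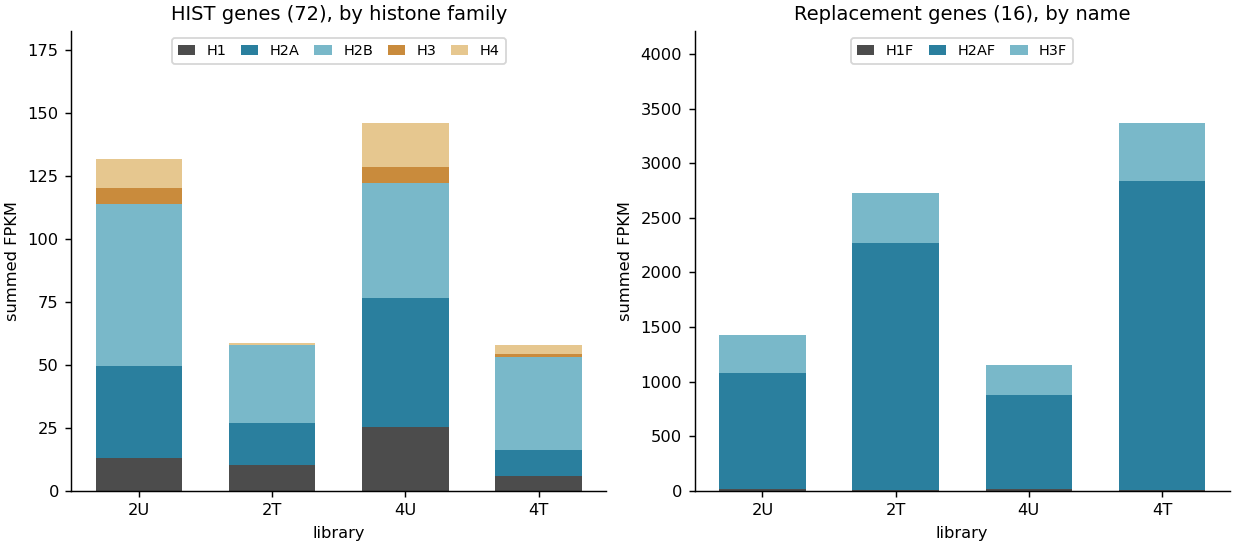
Summed FPKM of the 72 HIST genes (left, stacked by histone family) and of the 16 replacement genes (right, stacked by name) in each library; the y axes differ. The HIST sum was 131.7 and 145.9 FPKM in the untreated libraries and 58.6 and 57.9 in the treated ones, while the replacement sum was 1428 and 1155 untreated and 2730 and 3369 treated.

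By histone family, the HIST H2A genes (17, the core histone that pairs with H2B) summed to 36.5, 16.8, 51.1 and 10.3 FPKM in 2U, 2T, 4U and 4T. The 20 H2B genes summed to 64.4, 30.7, 45.8 and 36.8 FPKM in the same order. The 15 H4 genes stood at 11.5, 0.8, 17.3 and 3.7 FPKM and the 14 H3 genes at 6.3, 0.0, 6.4 and 1.2 FPKM. The 6 H1 linker genes, which bind DNA between nucleosomes, summed to 13.0, 10.2, 25.3 and 5.9 FPKM. In each of the 5 families, both treated sums were below both untreated sums. The difference was smallest for H2B at 4 h, at a ratio of 0.803, and for H1 at 2 h, at 0.788.

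The H1 sum was nearly all HIST1H1C (chr6:26055968-26056698 on GRCh37), the gene of linker histone H1-2. Its level was 12.4 (2U), 9.70 (2T), 25.3 (4U) and 5.93 (4T) FPKM. The treated values lay below both untreated values, but 4U was also 1.03 higher than 2U on the log2 scale, so the 2 untreated libraries differed more than 2U and 2T did. HIST1H1C at 4 h was lower by more than 2-fold (log2 ratio -2.09).

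In the H2A family, 5 HIST genes reached a mean of 1 FPKM. All 5 had both treated values below both untreated values, against 33.4% of all genes. Of these, HIST1H2AC and HIST1H2AG reached that mean through the untreated libraries. HIST2H2AA3 (chr1:149813505-149814478) was at 13.0, 7.97, 12.5 and 3.81 FPKM in 2U, 2T, 4U and 4T, with the untreated values close together. Of its 35-base stretches, 53.5% also occur in other genes, most of them in its duplicate HIST2H2AA4, which was listed at 0 throughout, so its level may stand for the pair. HIST3H2A (chr1:228622478-228645574) was at 5.77, 4.00, 7.68 and 1.11 FPKM, with 4T the lowest by far. HIST2H2AC (chr1:149858468-149858961) was at 4.58, 3.54, 4.89 and 3.53 FPKM, a lower level in both treated libraries by less than 2-fold (log2 ratios -0.37 and -0.47). HIST1H2AC (chr6:26124373-26139344) was at 3.47 FPKM in 2U, listed at 0 in 2T, at 11.3 in 4U and at 1.02 in 4T. HIST1H2AG (chr6:27100822-27101314) was at 4.31 and 4.17 FPKM in 2U and 4U, at 0.22 in 2T and listed at 0 in 4T.

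HIST1H2BK (chr6:27114140-27114634), an H2B gene, had the highest mean of the HIST genes. It stood at 52.2 (2U), 26.4 (2T), 33.3 (4U) and 27.2 (4T) FPKM. Its treated values were alike and below both untreated ones, but the log2 ratio at 4 h was -0.29, above the median of all genes (-0.35), so relative to that median it was 0.06 higher in 4T. Of its 35-base stretches, 68.1% occur in other genes. HIST1H2BJ (chr6:27093676-27100574) was at 4.97, 1.01, 2.37 and 1.24 FPKM in 2U, 2T, 4U and 4T, also without overlap. HIST1H2BG was at 2.70 FPKM in 2U, listed at 0 in 2T, at 3.56 in 4U and at 1.22 in 4T.

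HIST1H2BC and HIST1H2BD did not follow the other H2B genes with a mean of at least 1 FPKM. Below that mean, HIST1H2BE was also higher at both times, at 0.228, 0.316, 0.436 and 1.16 FPKM. HIST1H2BC (chr6:26086545-26124154) was at 0.548 (2U), 1.52 (2T), 2.48 (4U) and 3.32 (4T) FPKM, higher with treatment at both times (log2 ratios 1.47 and 0.42) but with 2T below 4U. With 4U in place of 2U as the untreated library, the 2 h ratio turned to -0.70. Of the 9 HIST genes above 0 in all 4 libraries with a mean of at least 1 FPKM, only HIST1H2BC was higher at both. Of these 9, 6 were lower at both times. How many of all genes were lower at both times was not counted. At each time alone, 8 of 10 HIST genes compared were lower at 2 h and 9 of 12 at 4 h. For all genes with that mean, these counts were 2556 of 5211 and 3277 of 5392. HIST1H2BD, named after its values were seen, was at 0.554, 1.49, 1.86 and 1.76 FPKM, with 2U as the low value. Both genes run far past the stem-loop in the annotation, by 37155 and 12747 bases, and every 35-base stretch of the HIST1H2BC transcript lies in another annotated gene as well.

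Of the H4 genes, which make the most conserved core histone, HIST1H4B (chr6:26027124-26027480) was at 2.06 FPKM in 2U and 13.1 in 4U and listed at 0 in both treated libraries. HIST2H4A, identical in sequence to HIST2H4B, was at 3.67, 0.848, 1.47 and 1.65 FPKM in 2U, 2T, 4U and 4T, lower at 2 h and not at 4 h (log2 ratios -2.11 and 0.17). HIST1H4C, also named after its values were seen, was at 2.50 and 2.79 FPKM untreated and listed at 0 in both treated libraries. No HIST H3 gene was above 0 in 2T, and 4 of 14 were above 0 in any library, the highest being HIST1H3C at 4.54 FPKM in 4U alone.

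**Figure D2:**
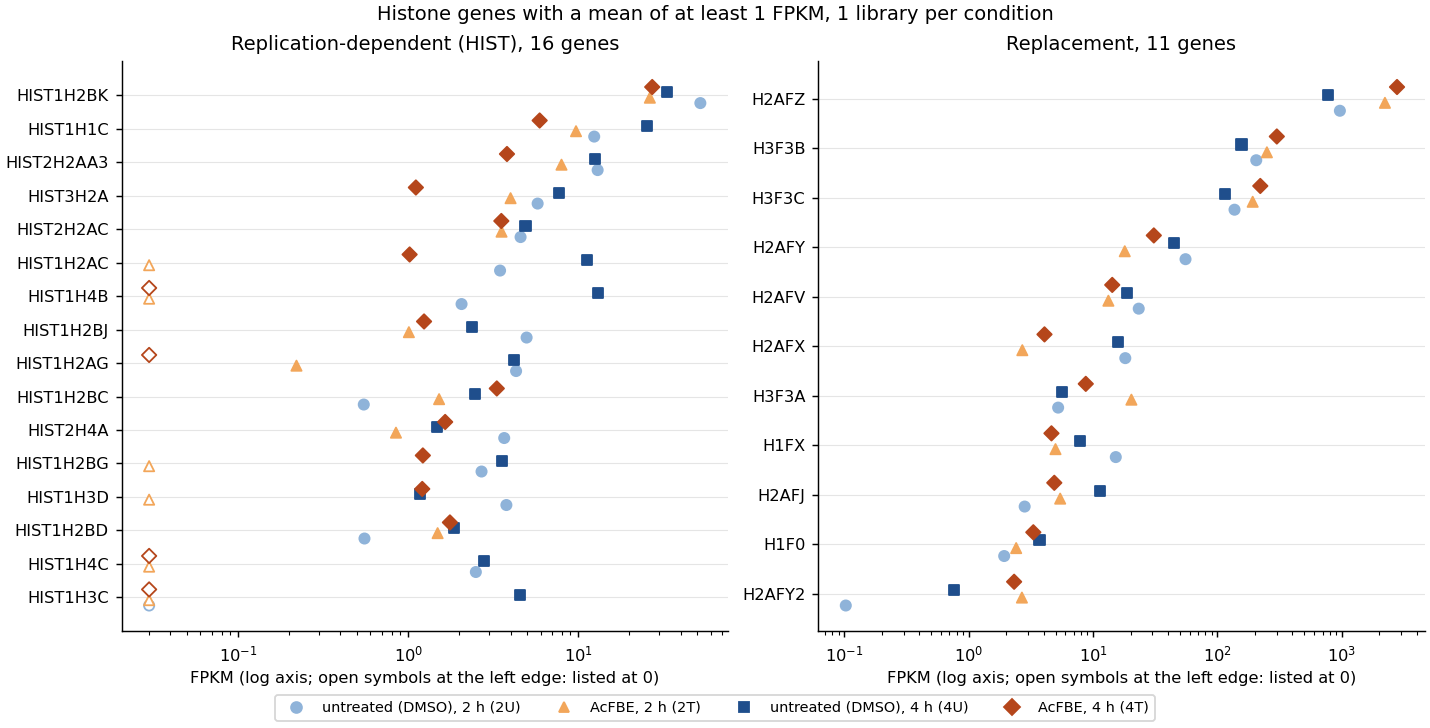
FPKM on a log axis of the 16 HIST genes (left) and 11 replacement genes (right) with a mean of at least 1 FPKM, with 1 symbol per library; open symbols at the left edge mark genes listed at 0. Treated symbols (orange, red) lie left of both untreated symbols (blue) for 11 of the 16 HIST genes, against 33.4% of all genes. For H2AFZ, the 3 H3F genes and H2AFY2 the treated symbols lie to the right, as for 23.7% of all genes. Some of the 11 passed the minimum through the untreated libraries. With the minimum on the mean of 2T and 4T, 6 of 10 HIST genes were below, against 29.7% of all genes.

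Many HIST genes that were listed in an untreated library were listed at 0 in the treated one. Of the 21 HIST genes with at least 1 FPKM in 2U, 12 (57.1%) were at 0 in 2T, against 4.06% of all genes. Of the 23 HIST genes with at least 1 FPKM in 4U, 10 (43.5%) were at 0 in 4T, against 1.45% of all genes. HIST1H2AE, HIST1H4B and HIST1H4C did so at both times. In the other direction, 0 of 8 HIST genes with at least 1 FPKM in 2T were at 0 in 2U (0.04% of all genes), and 1 of 14 with at least 1 FPKM in 4T was at 0 in 4U (1.28% of all genes). That gene was HIST1H4H. Over any level, 16 HIST genes were above 0 in an untreated library and at 0 in both treated ones, and 0 HIST genes showed the reverse, with 1367 and 340 such genes in the whole table. No replacement gene with at least 1 FPKM in 1 library of a pair was listed at 0 in the other. The 2 h shares rest on the 2U and 2T columns, whose gene numbers differ from those the study states and stand in the reverse order.

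HIST transcripts are short and low, and both properties go with values of 0. The 12 genes at 0 in 2T had been at 1.02 to 3.78 FPKM in 2U, and the 10 at 0 in 4T at 1.02 to 13.1 FPKM in 4U. The HIST genes with a mean of at least 1 FPKM had a median transcript length of 493 bases, against 2219 for all genes, so the same FPKM stands for fewer sequenced fragments in a HIST gene. Genes within the same broad limits of level and length were therefore set beside them, a choice made after seeing the data. Within these limits HIST genes can still be shorter and lower, so numbers of fragments were not matched. Whether the gap that remains goes beyond length and level was not tested. At 1 to 5 FPKM in 2U with a transcript under 1000 bases, 11 of 16 HIST genes (68.8%) and 29 of 118 genes other than histones (24.6%) were at 0 in 2T. With a GC content over 52% as well, the shares were 10 of 15 (66.7%) and 20 of 64 (31.2%). At 4 h the same limits gave 9 of 16 HIST genes (56.2%) against 15 of 126 other genes (11.9%), and 9 of 16 against 12 of 65 (18.5%) with the GC limit. Over genes of all lengths, the share of the other genes was 5.62% at 2 h and 2.38% at 4 h. These genes were chosen by their level in the library where they were listed, so the same limits were also set on the treated library. At 1 to 5 FPKM in 2T with a short transcript, 0 of 5 HIST genes and 0 of 91 other genes were at 0 in 2U. At that level in 4T, 1 of 11 HIST genes (9.09%) and 8 of 108 other genes (7.41%) were at 0 in 4U.

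**Figure D3:**
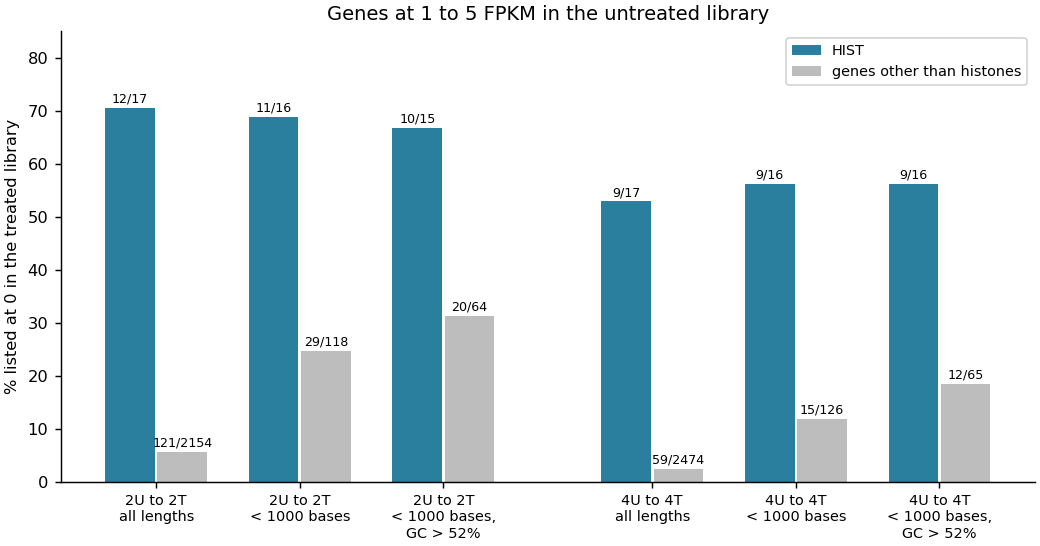
Share (%) of genes at 1 to 5 FPKM in an untreated library that were listed at 0 in the treated library of the same time, for HIST genes and for genes other than histones, with the counts above the bars. Restricting the other genes to short transcripts raised their share from 5.62% to 24.6% at 2 h and from 2.38% to 11.9% at 4 h, against 68.8% and 56.2% of short HIST genes.

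Many H2A and H2B genes lie back to back, with their start sites close together on opposite strands. In GENCODE, 13 such pairs of histone genes had starts at most 1000 bases apart, and in 2 of them both genes had a mean of at least 1 FPKM. HIST1H2BJ and HIST1H2AG, with 247 bases between their starts, were both lower in the treated libraries: the log2 ratios of HIST1H2BJ were -2.30 and -0.94, and that of HIST1H2AG was -4.29 at 2 h, with 0 listed in 4T. HIST1H2BC and HIST1H2AC differed in direction. HIST1H2BC was higher by 1.47 and 0.42 on the log2 scale, whereas HIST1H2AC was listed at 0 in 2T and had a log2 ratio of -3.47 at 4 h. The bases between the RefSeq starts of both pairs are shown because each pair shares this stretch, on GRCh38.p14 and the plus strand. Capitals mark, on either strand, the letters of the CCAAT box (CCAAT), of the TATA box (TATAAA) and of the octamer known from H2B promoters (ATGCAAAT).
HIST1H2BC to HIST1H2AC (chr6:26123927-26124171): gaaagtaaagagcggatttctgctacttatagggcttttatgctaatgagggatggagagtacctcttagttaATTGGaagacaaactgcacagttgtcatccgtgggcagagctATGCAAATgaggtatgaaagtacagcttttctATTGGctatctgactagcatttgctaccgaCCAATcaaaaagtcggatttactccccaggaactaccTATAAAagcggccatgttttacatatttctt
HIST1H2BJ to HIST1H2AG (chr6:27132796-27133042): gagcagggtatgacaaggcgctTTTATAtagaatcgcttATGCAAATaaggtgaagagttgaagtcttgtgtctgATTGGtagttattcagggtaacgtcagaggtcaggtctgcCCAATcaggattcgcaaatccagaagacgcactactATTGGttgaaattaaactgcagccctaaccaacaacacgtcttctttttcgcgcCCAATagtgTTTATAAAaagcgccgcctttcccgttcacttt
Both stretches held 1 octamer, and the CCAAT letters occurred 3 times in the first and 4 times in the second. The TATA letters occurred once in the first and 3 times in the second, where 2 matches overlap. Over promoters of 250 bases before to 50 after each RefSeq start, CCAAT was present in 84.6% of 65 HIST promoters, 78.6% of 14 replacement promoters and 35.7% of all 27305 promoters. TATAAA was present in 66.2% and 28.6% of the HIST and replacement promoters and in 3264 of all promoters. The octamer was present in 77.8% of 18 HIST H2B promoters, 25.5% of 47 other HIST promoters, 7.14% of the replacement promoters and 1.8% of all promoters. All searches covered both strands.

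Among the replacement histones, H2AFZ (chr4:100869243-100871512) was the most abundant histone transcript in every library. It encodes H2A.Z, the H2A variant placed at promoters and other regulatory sites. Its level was 964 (2U), 2219 (2T), 775 (4U) and 2775 (4T) FPKM. The untreated values lay close together and well below both treated values, at ratios of 2.30 and 3.58. The H2AFZ share of all histone FPKM was 61.8% and 59.6% in 2U and 4U, against 79.6% and 81.0% in 2T and 4T, and its rank among all genes went from 130 and 143 to 78 and 66. Of its 35-base stretches, 22.2% also occur in other genes, most of them in the pseudogene H2AZP3. H2AFV (chr7:44866390-44887686), the second H2A.Z gene, was at 23.3, 13.3, 18.7 and 14.3 FPKM in 2U, 2T, 4U and 4T. Both treated values were below both untreated ones, as in 33.4% of all genes. The sum of H2AFZ and H2AFV followed H2AFZ, since H2AFV was at under 25 FPKM throughout.

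The 3 H3F genes encode replacement forms of H3, deposited both in and outside S phase. All 3 had both treated values above both untreated values, against 23.7% of all genes. H3F3B (chr17:73772515-73781974) was at 205 (2U), 249.7 (2T), 156 (4U) and 300.0 (4T) FPKM. H3F3C (chr12:31944119-31945232), a processed copy of H3F3B without introns, was at 137, 192, 115 and 221 FPKM. The 2 genes share 338 of their 35-base stretches, 31.3% of those of H3F3C, and how the authors' counting divided reads between them is not known, so the level of H3F3C is uncertain. H3F3A (chr1:226249552-226259720) was at 5.24 (2U), 20.3 (2T), 5.63 (4U) and 8.74 (4T) FPKM, but 76.0% of its 35-base stretches occur in other genes and its level is uncertain for the same reason.

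H2AFX (chr11:118964584-118966175) encodes H2AX, the variant phosphorylated around DNA breaks, and is known to make both stem-loop and polyadenylated mRNA. It was at 18.2 (2U), 2.70 (2T), 15.8 (4U) and 4.07 (4T) FPKM. The treated values were 0.148 and 0.258 of the untreated ones. H1FX (chr3:129033614-129035129), a linker histone gene, was at 15.2, 4.99, 7.87 and 4.63 FPKM, with 19.0% of its 35-base stretches shared with an antisense gene. H2AFY (chr5:134670071-134735604), which encodes the large variant macroH2A, was at 55.4, 18.0, 44.7 and 30.8 FPKM. In H2AFX, H1FX and H2AFY both treated values were below both untreated values, as in 33.4% of all genes. With H2AFV, this held for 4 of the 11 replacement genes with a mean of at least 1 FPKM (36.4%).

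H2AFY2 (chr10:71812300-71872038), the second macroH2A gene, went the other way, at 0.103 (2U), 2.68 (2T), 0.758 (4U) and 2.32 (4T) FPKM. Its log2 ratio of 4.70 at 2 h rests on the low value in 2U, and against 4U the same 2T value gave a smaller difference. H2AFJ (chr12:14927339-14930936) was at 2.82, 5.44, 11.4 and 4.88 FPKM and H1F0 (chr22:38201236-38203439), a linker histone gene of resting cells, at 1.93, 2.41, 3.71 and 3.31 FPKM. In both genes the treated values lay between the untreated ones.

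The classes were next set beside all genes, using the log2 ratio of FPKM for genes with a mean of at least 1 FPKM over the 4 libraries that were above 0 in both libraries compared. Such counts leave out the genes listed at 0, and no test was made. At 2 h, 10 of 72 HIST genes could be compared, with a median log2 ratio of -0.62, and 11 replacement genes, with a median of 0.32, beside 0.03 for 5211 genes of the whole table. The replacement median turned to -0.25 without the H3F genes, which were left out as related copies, and to -0.50 with 4U as the untreated library. All 3 H3F genes were higher at 2 h, and H3F3B shares only 12.7% of its 35-base stretches with other genes. At this time 3 HIST genes and 3 replacement genes were at least 2-fold lower, and 2 HIST genes and 3 replacement genes at least 2-fold higher, against 18.7% lower and 22.6% higher over all genes. At 4 h, 12 HIST genes had a median of -0.70 and 11 replacement genes a median of -0.16, beside -0.35 for 5392 genes, so the replacement median was 0.19 above that of all genes. At this time 5 HIST genes and 2 replacement genes were at least 2-fold lower and 0 HIST genes and 2 replacement genes at least 2-fold higher, against 27.7% lower and 16.4% higher over all genes. The HIST median was below that of all genes at both times, but turned to 0.46 at 4 h once the trend with transcript GC content was subtracted. Against the median gene, 2 of the 10 HIST genes at 2 h and 5 of the 12 at 4 h lay above. The HIST calls of at least 2-fold lower (3 of 10 and 5 of 12) came to few genes beside a high background. After that subtraction, 3 of 11 HIST genes were at least 2-fold lower at 4 h and 2 at least 2-fold higher (HIST1H2BC at 1.18 and HIST2H4A at 1.24), against 10.5% and 9.6% of all genes.

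Both treated libraries were below both untreated ones in 11 of the 16 HIST genes with a mean of at least 1 FPKM (68.8%), against 33.4% of all 5445 genes, and above in 0 of 16, against 23.7%. Of the 11 replacement genes, 5 were above (45.5%) and 4 below (36.4%), the latter near the share of all genes. The minimum itself favours the HIST genes that were below, since HIST1H4B, HIST1H4C, HIST1H2AG, HIST1H2AC and HIST1H2BG passed it through the untreated libraries. With the minimum set on the mean of 2T and 4T, a choice made after seeing the data, 6 of 10 HIST genes were below and 0 above, against 29.7% and 26.9% of 5227 genes. These 6 are HIST1H1C, HIST1H2BJ, HIST1H2BK, HIST2H2AA3, HIST2H2AC and HIST3H2A. With 1 untreated library left out, 13 of the 16 HIST genes had both treated values below 4U alone, against 53.2% of all genes. Below 2U alone were 13 of the 16, against 43.4%. These counts again use the minimum over all 4 libraries, which favours them in the same way. HIST1H3C, for example, passed it through 4U alone.

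**Figure D4:**
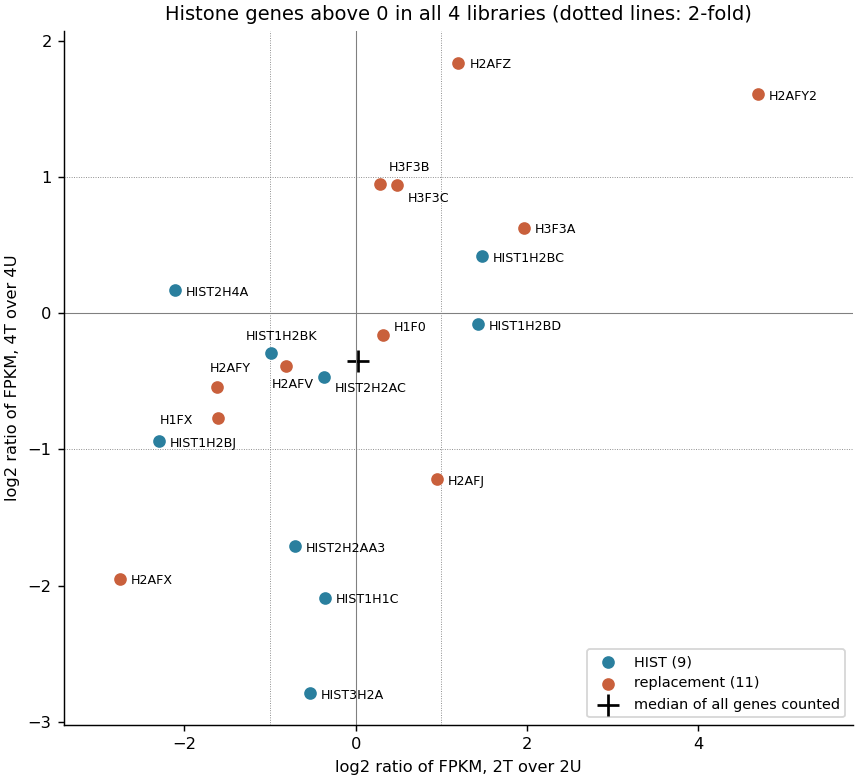
Log2 ratio of FPKM at 2 h (2T over 2U, x axis) and at 4 h (4T over 4U, y axis) of the 9 HIST and 11 replacement genes above 0 in all 4 libraries with a mean of at least 1 FPKM; dotted lines mark 2-fold and the cross the medians of all genes counted (0.03 and -0.35). Both ratios are below 0 for 6 of the 9 HIST genes and for H2AFX, H1FX, H2AFY and H2AFV. They are above 0 for H2AFZ, H2AFY2, the H3F genes and HIST1H2BC. At each time alone, 8 of 10 HIST genes compared had a ratio below 0 at 2 h and 9 of 12 at 4 h. For all genes counted, these were 2556 of 5211 and 3277 of 5392, and genes below 0 at both times were not counted.

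Over all genes, the ratios moved with the base composition of transcripts. Across genes, which are not independent replicates, the log2 ratio had a Pearson r with transcript GC content of -0.23 at 2 h (5095 genes). At 4 h it was -0.64 (5263 genes). Between libraries of like treatment, r was 0.18 for 4U against 2U (5202 genes) and -0.35 for 4T against 2T (5090 genes). With genes in 5 groups of like size by GC content, the median log2 ratio from the lowest group to the highest went from 0.72 to -0.10 at 2 h and from 1.01 to -1.16 at 4 h. The share of genes at least 2-fold lower at 4 h was 3.2% in the lowest group and 60.0% in the highest. Among the members with a mean of at least 1 FPKM, HIST transcripts had a median GC content of 58.2% (52.1% to 64.7%), replacement transcripts 51.1% (42.8% to 68.6%) and all genes 52.8%. H2AFZ (44.7%) and the H3F genes (42.8% to 45.6%) are low in GC, and H2AFX (66.8%) and H1FX (68.6%) are high. Single histone genes went against the trend, such as H2AFV (43.4%), which was lower at both times.

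**Figure D5:**
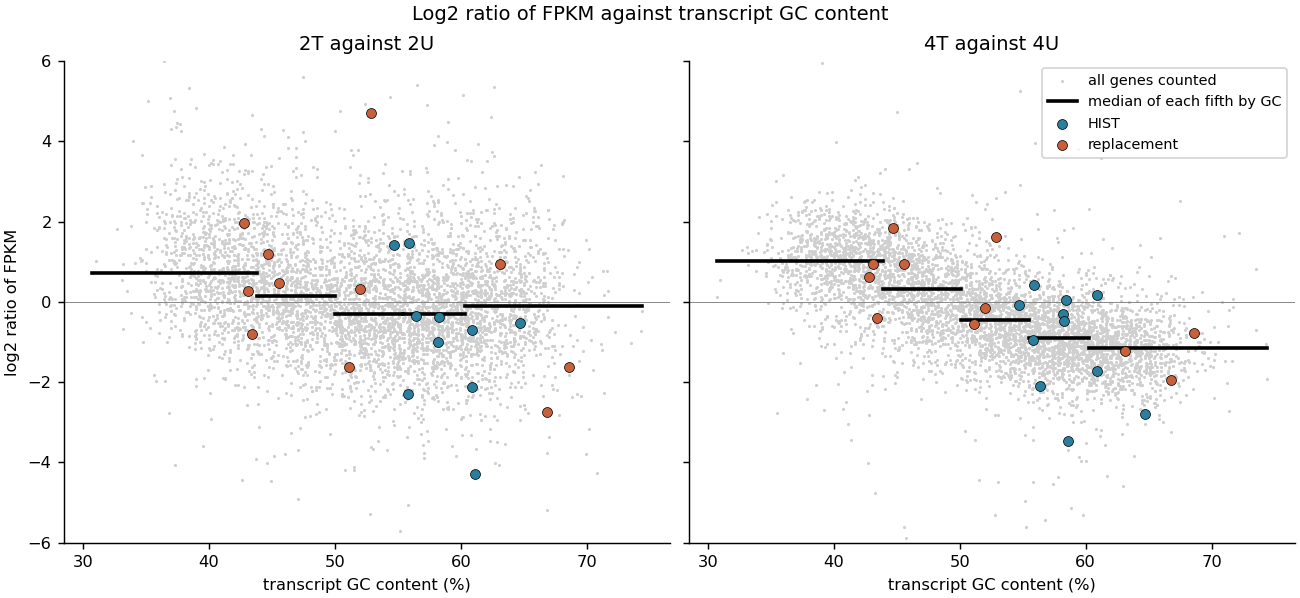
Log2 ratio of FPKM against transcript GC content (%) at 2 h (left) and 4 h (right), for all genes counted (grey), HIST genes (blue) and replacement genes (orange), with black bars for the medians of 5 groups of genes by GC content. The medians at 4 h go from 1.01 to -1.16, and HIST1H2AC, HIST3H2A and HIST1H1C lie below the medians there; the y axis is cut and leaves out the most extreme of all genes.

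When the trend with GC content was subtracted (a lowess over all genes, added after seeing the data), the HIST median was -0.50 at 2 h and turned to 0.46 at 4 h, where 6 of 11 HIST genes were then higher and 5 lower. The replacement medians were 0.20 and 0.13. H2AFZ kept higher values (0.83 and 1.22) and H2AFY2 too (4.95 and 2.08), and H2AFX kept lower ones (-2.74 and -0.73). HIST3H2A (-0.50 and -1.60), HIST2H2AA3 (-0.51 and -0.64) and HIST1H2BJ (-1.98 and -0.18) were also still below 0. Before the subtraction, their 4 h ratios had been -2.79, -1.71 and -0.94, so HIST2H2AA3 was no longer past 2-fold there. HIST1H1C was at -0.04 and -1.30, and HIST1H2AC at -2.51 at 4 h. H2AFV went from -0.81 and -0.39 to -1.31 and -1.17, past 2-fold at both times. At 4 h, HIST1H2BK turned to 0.64, HIST2H2AC to 0.46 and H1FX to 0.47, while H3F3A turned to -0.20. H3F3B turned to -0.24 at 2 h and was at 0.13 at 4 h. Whether GC content had a part in these differences was not tested beyond this subtraction.

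The untreated libraries give a measure of how far histone genes differed without AcFBE, though 2U and 4U also differ in time and share libraries with the comparisons above. For 4U against 2U, 15 HIST genes had a median log2 ratio of 0.16 and 11 replacement genes of -0.25. Of the HIST genes, 5 were at least 2-fold higher and 3 at least 2-fold lower, against 21.6% and 9.89% of all 5328 genes. Among genes above 0 in both libraries, the treated libraries were more alike. For 4T against 2T, 9 HIST genes had a median of 0.05. Of these, 1 was at least 2-fold higher and 2 lower, against 4.15% and 5.19% of all 5206 genes. Left out were 3 HIST genes listed at 0 in 2T but not in 4T and 1 listed at 0 in 4T but not in 2T. Over all genes, 208 and 7 were left out in this way. H2AFZ differed by -0.31 between the untreated libraries and by 0.32 between the treated ones. Among the HIST genes with a mean of at least 1 FPKM that were above 0 in both, HIST1H4B and HIST1H2BC differed most between the untreated libraries, at log2 ratios of 2.66 and 2.18, and HIST1H3C was listed at 0 in 2U and at 4.54 FPKM in 4U.

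Genes that make, process and chaperone histone mRNA and protein were described from 4 lists. SLBP was at 19.2 (2U), 6.06 (2T), 7.56 (4U) and 6.30 (4T) FPKM, so that 2U was high and the other 3 were alike. Of the 14 genes listed for histone mRNA end processing and found in the table, 6 reached a mean of 1 FPKM, with medians of -0.02 and -0.49 at 2 and 4 h. Of these 6, 2 were at least 2-fold lower at 2 h (18.7% of all genes) and 1 at least 2-fold higher at 4 h (16.4% of all genes), and none did so in 1 direction at both times. After the GC subtraction the medians were -0.01 and 0.25. The 10 polyadenylation genes counted had medians of -0.06 and 0.23. CPSF1, the large subunit of the factor that binds the poly(A) signal, was the one past 2-fold in the same direction at both times, at 13.1, 4.29, 11.7 and 3.67 FPKM in 2U, 2T, 4U and 4T. This is 1 of 10 genes, against 10.2% of all genes lower at both times. After the GC subtraction CPSF1 (62.3% GC) was at -0.55 at 4 h, under 2-fold, and the list medians were -0.79 and -0.40.

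The 12 histone chaperone genes counted had medians of 0.13 and -0.12, and of 0.06 and 0.09 after the GC subtraction. NAP1L1, a chaperone of H2A and H2B, was higher at both times, at 14.9, 42.1, 18.3 and 51.7 FPKM in 2U, 2T, 4U and 4T. HAT1, the acetyltransferase of newly made H4, was at 4.89, 11.4, 7.47 and 14.96 FPKM, with its 4 h ratio just at 2-fold. Both are low in GC (37.3% and 37%), and after the GC subtraction their ratios were 0.51 and 0.38 for NAP1L1 and 0.20 and -0.13 for HAT1. Of the 12 genes, 3 were at least 2-fold higher and 0 lower at 2 h (22.6% and 18.7% of all genes), and 5 were higher and 2 lower at 4 h (16.4% and 27.7%). After the GC subtraction, 1 was at least 2-fold higher and 0 lower at each time, against 19.5% and 18.3% of all genes at 2 h and 9.6% and 10.5% at 4 h.

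The S phase genes, which are transcribed with the HIST genes in the cell cycle, had a median log2 ratio of -0.05 over 16 genes at 2 h and 0.11 over 18 genes at 4 h. After the GC subtraction both medians changed sign, to 0.13 and -0.10. PCNA, the clamp of the replication polymerases, was at 47.5, 214.9, 75.7 and 217 FPKM in 2U, 2T, 4U and 4T. RRM1, a subunit of ribonucleotide reductase, was at 5.63, 11.7, 5.24 and 12.7 FPKM, and CCNA2, the cyclin of S phase and later, at 0.403, 5.09, 0.924 and 3.40 FPKM. These 3 were at least 2-fold higher at both times, as were 8.31% of the 5199 genes above 0 in all 4 libraries with a mean of at least 1 FPKM. CDT1, which licenses replication origins, was at 13.0, 5.28, 16.6 and 2.59 FPKM, and MCM5, a subunit of the replication helicase, at 82.2, 29.0, 47.6 and 22.2 FPKM, at least 2-fold lower at both times, as were 10.2% of those genes. By time, 5 S phase genes were at least 2-fold higher and 2 lower at 2 h (22.6% and 18.7% of all genes), and 6 higher and 6 lower at 4 h (16.4% and 27.7%). After the GC subtraction, 4 of 16 were at least 2-fold higher and 3 lower at 2 h, and 0 of 18 were higher and 2 lower at 4 h, beside the same shares of all genes as for the chaperones. The 3 higher genes had a GC content of 41.9% to 43.5%, and CDT1 and MCM5 of 64.3% and 56.3%. After the GC subtraction, the 4 h ratios were under 2-fold for PCNA (0.75), RRM1 (0.43), CCNA2 (0.97) and MCM5 (-0.30), and RRM1 was at 0.49 at 2 h. CDT1 stayed past 2-fold, at -1.26 and -1.50.

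RNAs without a poly(A) tail, the 398 rows of small nuclear, small nucleolar and related RNAs, give a measure of untailed RNA in each library. Their summed level was 173 (2U), 54.0 (2T), 104 (4U) and 131 (4T) FPKM, with 15, 3, 12 and 12 rows above 0. It was lower in 2T than in 2U, as the HIST sum was, and higher in 4T than in 4U, where the HIST sum was lower. Its part in the HIST levels was not tested.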

How the data were processed

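Poly(A)-selected RNA of SK-HEP-1 cells was sequenced on SOLiD 3. The authors aligned reads to hg19 (GRCh37) with TopHat and Cufflinks, per the submitters' processing notes, allowing 2 mismatches with Bowtie per the study's methods, and deposited FPKM per gene. The counter's settings, annotation and handling of reads with several matches are not given in the sources used here. The methods also speak of removing outliers found by linear regression, and whether this touched the deposited values is not stated. The 12 miRNA libraries were not used. Read counts per gene are not in the table, and the library totals the study states were not used, so no intervals are given. Members were found by name and not by level, but they and the lists were chosen with earlier results of these data known. FPKM were compared as deposited, as log2 ratios with no pseudocount, with a mean of at least 1 FPKM over 4 libraries, above 0 in both, and 2-fold as the call. Named genes were the 12 HIST and 10 replacement genes of highest mean, 3 genes of each class most increased and 3 most decreased by the smaller of their ratios, all H3F, H1F0, H1FX, H2AFX, H2AFZ, H2AFV and H2AFY names, SLBP, and list members past 2-fold in 1 direction at both times. Transcripts, starts and stop codons came from GENCODE on GRCh37 (85 of 88 members and 93.4% of genes matched by symbol or RefSeq synonym; HIST1H2BF, HIST1H2BG and HIST1H4F had none) and promoters from RefSeq GRCh38.p14 (79 members). Stretches of 35 bases were looked for in all GENCODE transcripts, on both strands. The ratio and GC steps were tested on simulated data (Python 3.11.15, pandas 2.3.3, statsmodels 0.14.6).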

Additional observations from a re-analysis of the deposited data

Results flagged for a closer look

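In the results named here, the treated library was higher than the untreated one at 1 time and lower at the other. There is 1 library per condition, so the difference between the times was not tested. HIST2H4A had a log2 ratio of -2.11 at 2 h and 0.17 at 4 h, a difference of 2.28 (4 h less 2 h). H2AFJ had ratios of 0.95 and -1.22, a difference of -2.17, and its 2 untreated libraries were 2.01 apart. H1F0 had ratios of 0.32 and -0.16, a difference of -0.48, and the replacement median also had 0.32 and -0.16, a difference of -0.48. The polyadenylation list had medians of -0.06 and 0.23, a difference of 0.29. The histone chaperone list had 0.13 and -0.12, a difference of -0.24, and the S phase list -0.05 and 0.11, a difference of 0.16. Over all genes the median went from 0.03 to -0.35. Centred on the median of all genes, the polyadenylation list was at -0.09 and 0.58 and the S phase list at -0.08 and 0.47. The chaperone list was then at 0.09 and 0.24, with no change of sign.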

How the results depend on the processing

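With 1 library per condition, no library can be left out without losing its condition. No paired analysis was possible because no condition has a second library or a replicate number, and a fit of treatment with time as a block, which would take 2 h and 4 h as repeats of 1 effect, was not run. No read counts per gene are in the table, and a given FPKM stands for fewer fragments in short HIST transcripts. Over 148 alternative values of the class results, 114 kept their direction and stayed within 1.5 times, and 34 did not. Except as stated, the cause was not tested. The HIST median at 4 h (-0.70) became 0.46 after the GC subtraction, and -1.71 with a mean of at least 5 FPKM, where 3 HIST genes remain counted. The HIST median of 4U against 2U (0.16) became -0.06 with that minimum and -0.25 after the GC subtraction, and that of 4T against 2T (0.05) became -0.71 with that minimum and -0.03 with libraries scaled to the same FPKM total. The replacement median at 2 h (0.32) became -0.25 without members that have a near-identical copy and -0.50 with 4U as the untreated library. At 4 h (-0.16) it became 0.19 with centring on the median of all genes, 0.13 after the GC subtraction and 0.69 with 2U as the untreated library. The difference of the HIST and replacement medians at 2 h (-0.94) became -0.20 without the H3F genes, HIST2H2AA3 and HIST2H4A, and -0.25 against 4U. At 4 h (-0.54) it became -1.14 on log2(FPKM + 1) with genes at 0 included, -1.32 with a mean of at least 5 FPKM, 0.33 after the GC subtraction and -1.84 against 2U. HIST genes at least 2-fold lower at 2 h (3, with 18.7% of all genes) became 8 on log2(FPKM + 1) (15.3%), 5 with no minimum (18.4%), 0 with a mean of at least 5 FPKM (18.2%) and 5 at 1.5-fold (29.9%). At 4 h (5, with 27.7% of all genes) they became 9 on log2(FPKM + 1) (20%), 2 with a mean of at least 5 FPKM (26.6%), 3 after the GC subtraction (10.5%) and 8 against 2U (22.8%). Replacement genes at least 2-fold higher at 4 h (2, with 16.4% of all genes) became 1 on log2(FPKM + 1) (12.2%), 1 with a mean of at least 5 FPKM (17.3%), 4 with centring (23.6%) and 5 at 1.5-fold (24.8%). HIST genes with both treated values below both untreated values (11 of 16, with 33.4% of all genes) became 18 of 72 with no minimum (12.3%). They became 3 of 3 with a mean of at least 5 FPKM (35.7%) and 6 of 10 with the minimum on 2T and 4T alone (29.7%). The log2 ratio of the replacement sum (0.94 and 1.54) became 0.14 and 0.65 without H2AFZ. For single genes, 3 of 506 alternative values changed the sign of a ratio past 2-fold: HIST1H2BC at 2 h became -0.70 against 4U, H2AFJ at 4 h became 0.79 against 2U, and HAT1 at 4 h became -0.13 after the GC subtraction.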
